A study of Mus musculus with 6 samples.

Results

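The transcripts described here came from 10 genes tied to the transcription factor NRF2 in mouse pancreatic acini, namely Nfe2l2, which encodes NRF2, and 9 genes known as its targets (Nqo1, Hmox1, Gclc, Gclm, Txnrd1, Srxn1, Gsr, Osgin1 and G6pdx). They were taken by gene name from a count table of 56953 genes, and all 10 were among the 14738 genes that passed the filter on low counts. Acini, the enzyme-secreting units of the exocrine pancreas, were explanted and kept for 3 days in an ex vivo assay of acinar-to-ductal metaplasia (ADM), in which acinar cells take on duct-like features. Each of 3 groups had 2 libraries, and the groups were acini with wild-type Dkk3 (WT), acini of Dkk3 knockout mice (DD), and DD acini treated with commercial recombinant DKK3 (DD + rDKK3). DKK3 is a secreted glycoprotein, and the comparisons ask how acini respond to its loss and to its return from outside. The knockout allele is present in all tissues of the mice, not in the acini alone. All cultures received serum and dexamethasone, a synthetic glucocorticoid, so no group shows the genes without that hormone. The labelled ages rose by library, with 10 and 11 weeks for the WT pair, 12 and 13 weeks for the DD pair and 14 and 15 weeks for the treated pair, so age and group cannot be told apart. WT 2 was labelled as female and the other 5 libraries as male. The strain was not given in the labels, which also do not say whether the 2 libraries of a group came from separate animals, so the p-values measure only the spread between these libraries.

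NRF2 is held at a low level by KEAP1, an adaptor that presents it to a ubiquitin ligase. Oxidants and electrophiles modify KEAP1, after which NRF2 accumulates, pairs with small MAF proteins and binds antioxidant response elements (AREs) near genes that make glutathione, reduce thioredoxin, supply NADPH and clear quinones and haem. Since this control acts mostly on the NRF2 protein, the Nfe2l2 transcript need not follow the transcripts of its targets. In the pancreas, acinar cells carry a heavy load of secretory protein folding, which consumes reducing power.

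Short stretches of the members' promoters are given first, because the ARE is the sequence through which NRF2 acts on its targets. RefSeq promoter windows, reaching from 250 bases before to 50 bases after a transcription start on GRCm38.p6, were matched for 7 members (9 windows). Hmox1, Gclc and Gsr had no window in the table. The ARE core TGACNNNGC, searched on both strands, was present in 5 of the 9 windows (1 each of Nfe2l2, Gclm, Txnrd1, Srxn1 and G6pdx), against 12.4% of all 32851 windows. The letters TGANTCA, the site of AP-1 (the FOS and JUN dimer), were present in 2 of the 9 windows, those of Srxn1 and Osgin1, against 7.81% of all windows. In both genes a copy carried the extension TGANTCAGC, an ARE-like string that contains the AP-1 site and was searched for only after the windows had been read, and 1.19% of all windows held it. Neither string was in the Nqo1 window. The sites below are written 5′ to 3′ along the strand of the gene with 8 bases on either side, and capitals mark the match (the ARE core, or TGANTCAGC for Srxn1 and Osgin1, on either strand).
Nfe2l2, chr2:75704895-75704903, minus strand: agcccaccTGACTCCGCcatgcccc
Gclm, chr3:122245423-122245431, plus strand: tcccgggcGCACCGTCAactctcac
Txnrd1, chr10:82859114-82859122, plus strand: ggatttttGCTTTGTCAttctgaca
Srxn1, chr2:152105479-152105487, plus strand: attcacccTGAGTCAGCggccgggc
Osgin1, chr8:119437048-119437056, plus strand: gggcccctGCTGACTCAcgcttatg
G6pdx, chrX:74428929-74428937, minus strand: gcgggtcaGCTCAGTCAaagcacac
The first base of the match lay 240 bases before the start in Nfe2l2, 134 in Gclm, 92 in Txnrd1, 45 in Srxn1, 99 in Osgin1 and 57 in G6pdx. The Txnrd1 site was in 1 of its 3 windows, and Srxn1 held its ARE core 29 bases after the start. A match of letters is a description of the sequence, and no binding was measured.

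The libraries held 12018473 to 19750401 counts, and the lowest member count in any library was 199 (Nqo1 in WT 1, exact 95% Poisson interval 172 to 229). Such intervals cover counting error only and are narrow beside the differences between the libraries of a group. Levels are given as counts per 1000000 (CPM) after scaling by the trimmed mean of M-values, in the order replicate 1, replicate 2. Dkk3 itself gave only 1 to 11 counts per library in all 3 groups, and counts over the whole gene cannot check the labels. The paper found similar Dkk3 totals in WT and DD, which it ascribes to an intracellular isoform, Dkk3b. It showed the knockout with exon-specific primers. Markers of acinar cells summed to 62560 to 109300 CPM and those of ductal cells to 1334 to 2312 CPM, so the labelled cell type was present throughout. Markers of fibroblasts and stellate cells summed to 673 CPM in DD 2 and 753 CPM in DD + rDKK3 2, against 33.8 to 132 CPM in the other 4 libraries, and macrophage markers to 224 and 173.5 CPM against 57.0 to 109 CPM. In such bulk RNA, fewer cells of a type and less RNA per cell cannot be told apart.

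Nfe2l2 (ENSMUSG00000015839.7, GRCm39 chr2:75505857-75534985, minus strand) encodes the transcription factor itself. Its level was 258 and 249.7 CPM in WT, 312 and 325.5 CPM in DD, and 275 and 331 CPM in DD + rDKK3. Both WT libraries lay below the other 4, while the DD + rDKK3 libraries enclosed those of DD. The log2 fold change of DD against WT was 0.33 (SE 0.17, 95% interval −0.063 to 0.72), with an adjusted p of 0.586 by edgeR's quasi-likelihood test with Benjamini-Hochberg adjustment over all genes, the test used for every adjusted p below. DD + rDKK3 stood −0.074 (SE 0.17, adjusted p = 0.9999) from DD and 0.26 (SE 0.17, adjusted p = 0.447) from WT on the log2 scale. Its libraries within a group differed by at most 1.20-fold, the tightest of the 10 genes in WT and in DD.

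Gclc (ENSMUSG00000032350.10, chr9:77661817-77701767, plus strand) encodes the catalytic subunit of glutamate-cysteine ligase, the enzyme that sets the rate of glutathione synthesis. It had 500.1 and 1066 CPM in WT, 1734 and 761 CPM in DD, and 809 and 461 CPM in DD + rDKK3. DD 1 was far above the other libraries, and the ranges of all 3 groups overlapped. Its log2 fold change was 0.67 (SE 0.49, adjusted p = 0.627) for DD against WT. It was −0.97 (SE 0.49, 95% interval −2.11 to 0.17, adjusted p = 0.9999) when treated and untreated DD acini were compared, and −0.30 (SE 0.49, adjusted p = 0.764) between the treated acini and WT. Gclm (ENSMUSG00000028124.16, chr3:122039206-122064381, plus strand), its modifier subunit, whose promoter site is printed above, had 106 and 249 CPM in WT, 259 and 132 CPM in DD, and 162 and 97.5 CPM in DD + rDKK3. As for Gclc, WT 2 exceeded WT 1 and DD 1 exceeded DD 2, and the groups overlapped. The log2 fold changes of Gclm were 0.14 (SE 0.46), −0.59 (SE 0.46) and −0.45 (SE 0.46) in the same order of comparisons, with adjusted p-values of 0.921, 0.9999 and 0.622. Gsr (ENSMUSG00000031584.17, chr8:34142551-34188191, plus strand), glutathione reductase, which returns oxidised glutathione to its reduced form, spanned 66.15 CPM in WT 1 to 133 CPM in DD 1. Its 3 groups also overlapped, and its log2 fold changes were 0.38 (SE 0.29), −0.47 (SE 0.29) and −0.089 (SE 0.29).

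Txnrd1 (ENSMUSG00000020250.12, chr10:82669785-82733546, plus strand) encodes cytosolic thioredoxin reductase, which keeps thioredoxin reduced at the cost of NADPH. It had 171 and 305.5 CPM in WT, 388 and 229 CPM in DD, and 270.1 and 206 CPM in DD + rDKK3. Both other groups lay within or across the WT range. Its log2 fold change was 0.37 (SE 0.34) in DD relative to WT and −0.37 (SE 0.34) after rDKK3, while DD + rDKK3 against WT gave −0.0032, a value whose sign turned with the scaling (0.13 with library totals). Srxn1 (ENSMUSG00000032802.9, chr2:151947436-151953296, plus strand), sulfiredoxin, which repairs over-oxidised peroxiredoxins, had 125 and 327 CPM in WT, 415 and 146 CPM in DD, and 231 and 116 CPM in DD + rDKK3. These were the widest gaps between libraries of a group among the members in DD and in DD + rDKK3, at 2.85-fold and 1.99-fold, and the groups overlapped. The log2 fold changes of Srxn1 were 0.31 (SE 0.59), −0.70 (SE 0.59) and −0.38 (SE 0.59), with adjusted p-values of 0.853, 0.9999 and 0.753.

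G6pdx (ENSMUSG00000031400.11, chrX:73453089-73472800, minus strand) encodes glucose-6-phosphate dehydrogenase, the entry enzyme of the pentose phosphate pathway and a main source of NADPH. It had 78.1 and 105 CPM in WT, 168.5 and 108 CPM in DD, and 107 and 93.7 CPM in DD + rDKK3. Both DD libraries lay above the other 4, by a narrow margin for DD 2. Its log2 fold change of DD against WT was 0.60 (SE 0.25, 95% interval 0.020 to 1.17, unadjusted p = 0.0443, adjusted p = 0.586), and that of DD + rDKK3 against DD was −0.47 (SE 0.25, unadjusted p = 0.0973, adjusted p = 0.9999). Against WT, DD + rDKK3 gave 0.13 (SE 0.25, adjusted p = 0.802). The gene overlaps Ikbkg on the other strand, which had 43.7% as many counts, and the authors counted reads by strand. Its near copy G6pd2, 93.9% identical over its transcript, had 0 to 2 counts per library.

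Nqo1 (ENSMUSG00000003849.9, chr8:108114857-108129838, minus strand) encodes a quinone reductase and is among the most used readouts of NRF2. It had 19.5 and 54.7 CPM in WT, 56.1 and 63.9 CPM in DD, and 32.7 and 27.4 CPM in DD + rDKK3. Both DD libraries were above both DD + rDKK3 libraries, and WT 2 was close to DD 1 while WT 1 was the lowest of all. Nqo1 stood at 0.501 times its DD level in DD + rDKK3, a log2 fold change of −0.998 (SE 0.40, 95% interval −1.92 to −0.076, unadjusted p = 0.0373), but the adjusted p was 0.9999. DD against WT gave 0.68 (SE 0.40, adjusted p = 0.595) and DD + rDKK3 against WT −0.32 (SE 0.40, adjusted p = 0.692).

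Hmox1 (ENSMUSG00000005413.9, chr8:75820249-75827217, plus strand) encodes the inducible haem oxygenase, which breaks haem down to biliverdin, iron and carbon monoxide. It had 126 and 174 CPM in WT, 227 and 154 CPM in DD, and 125 and 81.1 CPM in DD + rDKK3. Both DD + rDKK3 libraries lay below the other 4, WT 1 only just above them. Of the 10 members it had the lowest unadjusted p in DD + rDKK3 against DD, with a log2 fold change of −0.89 (SE 0.29, 95% interval −1.56 to −0.22, unadjusted p = 0.0155, adjusted p = 0.9999). Its log2 fold change was 0.35 (SE 0.28, adjusted p = 0.657) for DD against WT and −0.54 (SE 0.29, adjusted p = 0.369) between the treated acini and WT.

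Osgin1 (ENSMUSG00000074063.11, chr8:120160863-120172995, plus strand), an oxidative stress-induced growth inhibitor, differed from the other targets in its order of groups. It had 79.2 and 53.0 CPM in WT, 47.4 and 39.5 CPM in DD, and 45.8 and 28.1 CPM in DD + rDKK3. Both WT libraries lay above the other 4. The log2 fold change was −0.60 (SE 0.28, 95% interval −1.24 to 0.039, adjusted p = 0.586) for DD against WT, −0.23 (SE 0.28, adjusted p = 0.9999) between treated and untreated DD acini, and −0.84 (SE 0.28, 95% interval −1.48 to −0.19, unadjusted p = 0.0175, adjusted p = 0.322) for DD + rDKK3 against WT.

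**Figure D1:**
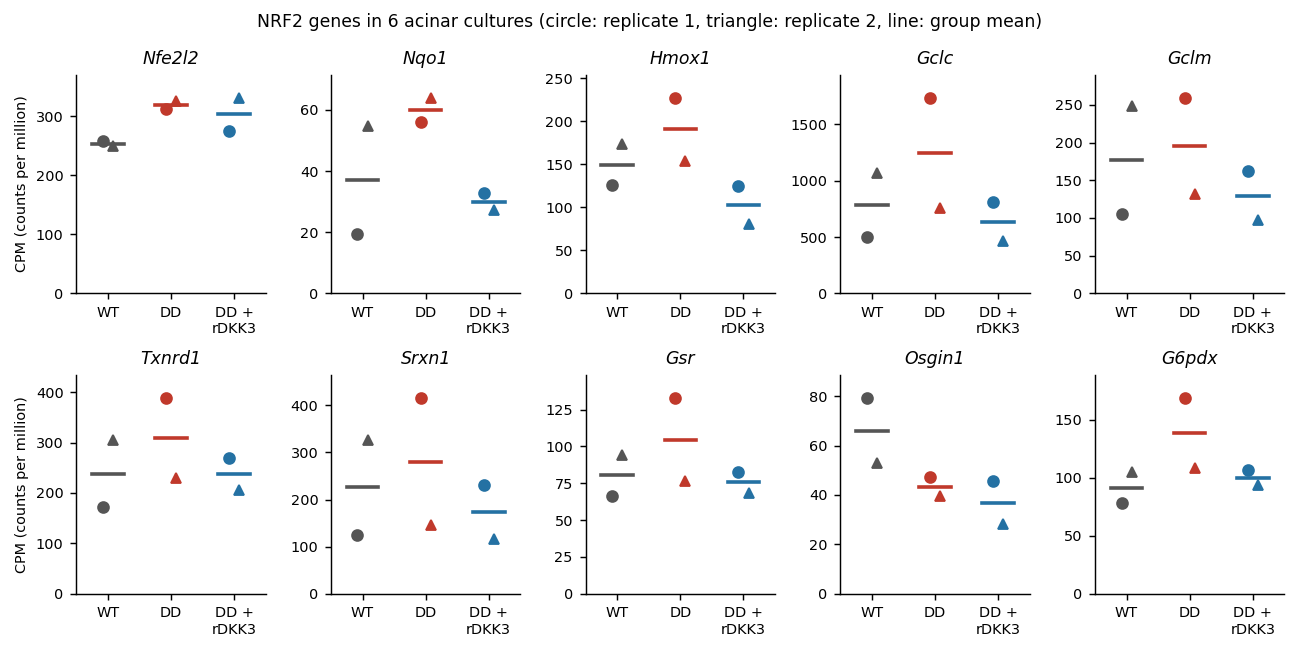
CPM (vertical axes, each from 0) of the 10 genes in the 3 groups; circles are replicate 1, triangles replicate 2 and lines the mean of the 2 libraries. In most of the enzyme genes the 2 libraries of WT and of DD stand far apart (Srxn1 at 125 and 327 CPM in WT, 415 and 146 CPM in DD), while Nfe2l2 is tight and Osgin1 is highest in WT.

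Levels per kilobase of exon set genes only roughly beside each other, since exon lengths and counts came from different annotation releases. Srxn1 was left out of the ranking. Gclc was the most abundant of the ranked members in WT at 125 ± 63.9 CPM per kilobase (SD, n = 2). Hmox1 followed at 85.1 ± 19.3, within the spread of Gclc, and Nfe2l2 at 46.45 ± 1.02. Txnrd1 (33.7 ± 13.4) and Gclm (22.3 ± 12.8) came next, within their spread of each other. Srxn1 gave 24.1 ± 15.2, which is too low. Its exon length of 9391 bases is longer than its whole counted locus (chr2:151947436-151953296). G6pdx (14.1 ± 2.92), Osgin1 (13.9 ± 3.91), Nqo1 (13.5 ± 9.06) and Gsr (11.6 ± 2.89) were the least abundant and did not differ beyond their spread. In DD, with Srxn1 again left out, Gclc (199 ± 109.9), Hmox1 (108 ± 29.4) and Nfe2l2 (58.4 ± 1.735) had the highest means. In DD + rDKK3 Gclc was at 101 ± 39.3, and Hmox1 (58.5 ± 17.6) and Nfe2l2 (55.45 ± 7.21) lay within their spread of each other.

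In the loss of DKK3 (DD against WT), the 9 genes other than Osgin1 had higher fitted levels in DD, from 0.14 for Gclm to 0.68 for Nqo1 on the log2 scale, and Osgin1 had a lower one. None of the 10 was called by edgeR at an adjusted p under 0.05, against 0.0407% of all genes tested (6 genes). At an unadjusted p under 0.05 there was 1 member, G6pdx, against 8.26% of all genes, and DESeq2 and limma-voom also called 0 members. The DD libraries were both above the WT libraries for 3 members (Nfe2l2, Nqo1 and G6pdx), against 18.1% of all genes, and both below for Osgin1, against 19.7%. The members' median log2 fold change was 0.36, and that of all genes 0.016. This median rested on single libraries, as it was −0.027 without DD 1, 0.15 without WT 1, 0.65 without DD 2 and 0.84 without WT 2, and without DD 1 only 4 of the 10 genes were higher in DD.

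With rDKK3 added back (DD + rDKK3 against DD), all 10 genes had lower fitted levels, from −0.074 for Nfe2l2 to −0.998 for Nqo1 on the log2 scale. None was called by edgeR, DESeq2 or limma-voom, and edgeR called 0% of all genes tested. At an unadjusted p under 0.05 there were 2 members, Nqo1 and Hmox1, against 1.98% of all genes. Both treated libraries lay below both DD libraries for 3 members (Nqo1, Hmox1 and G6pdx), against 14.4% of all genes, and above for 0, against 15.1%. The median of the members was −0.53, beside −0.0028 over all genes. It was −0.12 without DD 1, −0.32 without DD + rDKK3 2, −0.83 without DD + rDKK3 1 and −0.86 without DD 2, and 8 of the 10 genes remained lower without DD 1. Leaving out DD 2 and DD + rDKK3 2 together, the libraries richest in fibroblast markers and a choice made after seeing the data, gave −0.68 with all 10 lower, from 1 library a group.

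Between DD + rDKK3 and WT, 2 members (Nfe2l2 and G6pdx) had higher and 8 lower fitted levels in DD + rDKK3. edgeR, DESeq2 and limma-voom each called 0 members, against 0.0475% of all genes by edgeR (7 genes), and Osgin1 was the 1 member at an unadjusted p under 0.05, against 15.3% of all genes. The libraries did not overlap for Nfe2l2, which was higher, against 27.9% of all genes, and for Hmox1 and Osgin1, which were lower, against 27.1%. The median of −0.31 beside 0.017 over all genes turned to 0.33 without WT 2 and to 0.037 without DD + rDKK3 2, and was −0.61 without WT 1 and also without DD + rDKK3 1. With library totals in place of trimmed-mean scaling, the median was −0.19 and that of all genes 0.18, with 4 members higher. The 3 comparisons draw on the same 6 libraries, so each library enters 2 of them. Testing all genes without the filter on low counts called Nqo1 in DD against WT, Nqo1, Hmox1 and Gclc in DD + rDKK3 against DD, and Osgin1 in DD + rDKK3 against WT. Over all genes it called 528, 73 and 788 in this order of comparisons, against 6, 0 and 7 with the filter. For Nqo1 the SE in DD against WT was 0.19 in that fit and 0.40 with the filter, although its WT libraries stood 2.80-fold apart. For Gclc and Srxn1, not called in that comparison, the SE was smaller too, although their libraries lay far apart. The calls made without the filter were not read as differences, and why the SE fell was not tested.

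**Figure D2:**
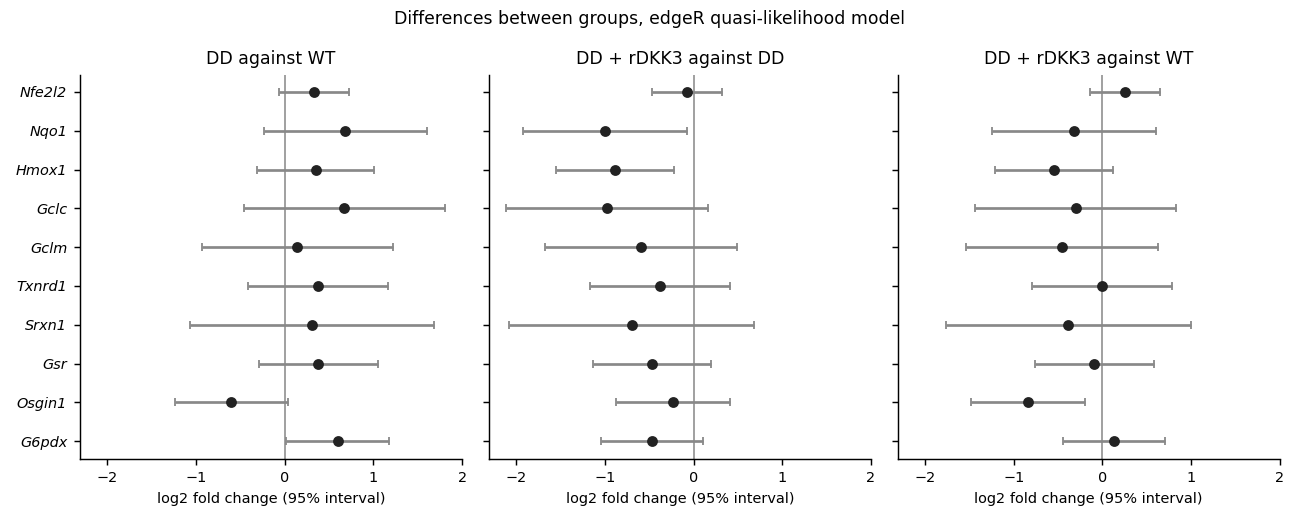
Log2 fold change (horizontal axes) of the 10 genes in the 3 comparisons from the edgeR quasi-likelihood fit, where points are estimates and bars 95% intervals. All 10 points lie left of 0 for DD + rDKK3 against DD, and the interval leaves out 0 there for Nqo1 and Hmox1, for G6pdx in DD against WT, and for Osgin1 in DD + rDKK3 against WT.

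For many of the members the libraries of a group differed from each other by as much as the groups did. Exceptions included Nfe2l2, where WT 2 minus WT 1 was −0.045 and DD 1 minus DD 2 −0.061 (log2), beside 0.33 for DD against WT. For Nqo1, DD 1 minus DD 2 was −0.19 and the same difference in DD + rDKK3 0.25, beside −0.998 between these groups. WT 2 exceeded WT 1 for 8 of the 10 genes, by up to 1.48 on the log2 scale for Nqo1 and 1.385 for Srxn1, with a median difference of 0.67 beside 0.006 over all genes tested. A difference above 1 was seen in 4 members and in 4.76% of all genes. DD 1 exceeded DD 2 for 8 of the 10, with a median of 0.70 beside 0.022 over all genes, and Srxn1 (1.51) and Gclc (1.19) differed by more than 1, as did 0.902% of all genes. DD + rDKK3 1 exceeded DD + rDKK3 2 for 9 of the 10, with a median of 0.51 beside −0.002 over all genes, and no member differed by more than 1, against 0.923% of all genes. DD 1 was the highest library for 7 members (Hmox1, Gclc, Gclm, Txnrd1, Srxn1, Gsr and G6pdx). The mean of the members' centred log2 CPM was −0.38 in WT 1 and 0.30 in WT 2. It was 0.62 in DD 1 and −0.027 in DD 2, and −0.018 in DD + rDKK3 1 and −0.49 in DD + rDKK3 2. In each group the library with the lower mean was the one with the higher sum of fibroblast markers, which in WT was 104 CPM in WT 1 and 33.8 CPM in WT 2, and their part in the members' levels was not tested. Acinar markers summed to 109300 and 81410 CPM in WT, 79230 and 62560 CPM in DD, and 85860 and 68370 CPM in DD + rDKK3, and their part was not tested either. These sums were mostly Ctrb1 (66670 CPM in WT 1), so they do not rank the libraries by acinar identity. Ctrb1, Cela1, Pnlip and Cel were highest in WT 1, Cpa1 was not, and Ptf1a (118.6 CPM) and Bhlha15 (19.5 CPM) were lowest there.

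Across the 6 libraries, the levels of 8 enzymes ran together. The Pearson correlation of log2 CPM between members, given as a description over 6 points that share libraries and group labels, ranged from −0.79 (Nfe2l2 with Osgin1) to 0.99 (Gclm with Srxn1) over 45 pairs, with a median of 0.72, and 14 pairs were above 0.9. Without Nfe2l2 and Osgin1, 2 genes set apart after their values were seen, the 28 remaining pairs ranged from 0.61 to 0.99 with a median of 0.88. Correlations between pairs of other genes were not computed, so these values have no background beside them. Gclm and Srxn1 (0.986) were the closest pair, followed by Gclc and Gsr. Txnrd1, Gsr and Gclc had the highest median correlation with the other members (0.91 each), Nqo1 had 0.69, and Osgin1 (0.032) and Nfe2l2 (−0.031) had the lowest. The transcript of the factor itself therefore followed a different pattern over these libraries from that of the enzymes.

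**Figure D3:**
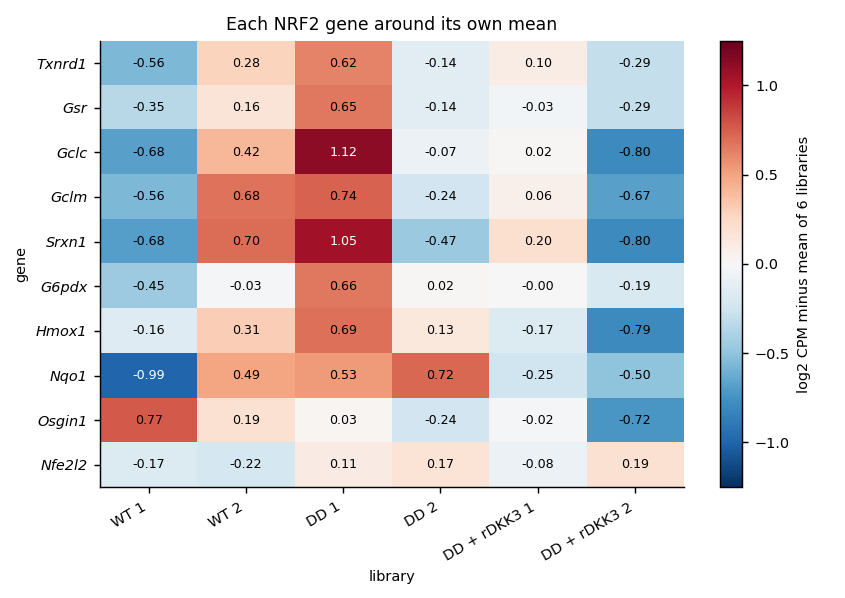
Log2 CPM of each gene minus its mean over the 6 libraries (colour and printed value), with libraries in columns and genes in rows ordered by their median correlation with the other members. DD 1 is above the mean for all 10 genes and DD + rDKK3 2 below it for 9, while Osgin1 peaks in WT 1 (0.77) and Nfe2l2 stays within −0.22 to 0.19.

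Among 11854 genes with an average log2 CPM of at least 1, the gene most like the members' mean pattern was Slc7a11 (r = 0.992 over 6 libraries), the cystine carrier that feeds glutathione synthesis. Its levels were 40.8 and 136 CPM in WT, 215 and 70.2 CPM in DD, and 89.9 and 39.3 CPM in DD + rDKK3, so WT 2 and DD 1 were high as for Gclm and Srxn1. Next came Gm10252 (0.990) and Ftl1 (0.989), the light chain of the iron store ferritin, whose locus Gm10252 overlaps on the other strand. Ftl1 ran from 2017 CPM in WT 1 to 3967 CPM in DD 1, and Gm10252 from 1136 to 2264 CPM in the same libraries. As their loci overlap, they may not be separate matches, which was not tested. Entpd5 (0.986), a nucleotide phosphatase of the endoplasmic reticulum, and Igf2bp2 (0.985), an RNA-binding protein, completed the 5 most similar genes. Slc7a11 and Ftl1 also belong to the pathway lists described next. No p is given, since 25 genes exceeded 0.95 in this ranking over so few libraries.

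The wider pathway was read from 100 genes in 7 lists, none of them a member, of which 97 could be tested. edgeR called 0 of the 97 in each comparison. Of the 97, 8 had an unadjusted p under 0.05 in DD against WT (5 higher and 3 lower), 14 in DD + rDKK3 against DD (all lower), and 15 in DD + rDKK3 against WT (2 higher and 13 lower). These were 8.25%, 14.4% and 15.5% of the lists, beside 8.26%, 1.98% and 15.3% of all genes tested. The medians of the 97 were 0.049, −0.32 and −0.26 on the log2 scale. That of DD against WT turned to −0.10 without DD 1 and −0.025 without WT 1, and was 0.28 without WT 2 and 0.15 without DD 2. That of DD + rDKK3 against DD was −0.21 without DD 1, and that of DD + rDKK3 against WT turned to 0.035 without WT 2. Leaving out single libraries gave 4 to 24, 4 to 21 and 3 to 22 genes at an unadjusted p under 0.05. In DD against WT 54 genes were higher and 43 lower, or 74 and 23 with library totals, and in DD + rDKK3 against WT 23 and 74, or 34 and 63. DESeq2 called 3 of them in DD + rDKK3 against WT, Prdx1 and Gpx4 included, and 0 in the other comparisons, and limma-voom called 0 throughout. Without the filter on low counts edgeR called 10, 17 and 12, beside 528, 73 and 788 over all genes.

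Of the 11 regulators of NRF2, 6 were higher and 5 lower in DD against WT (median 0.092), and 7 were higher and 4 lower with rDKK3 added to DD acini (median 0.032). Between DD + rDKK3 and WT 8 were higher and 3 lower, with a median of 0.15 beside 0.017 over all genes. The libraries of these groups did not overlap for 7 higher and 1 lower regulator, against 27.9% and 27.1% of all genes. Keap1, the adaptor that holds NRF2 down, had 42.4 and 49.3 CPM in WT, 52.6 and 38.3 CPM in DD, and 49.9 and 45.7 CPM in DD + rDKK3, with log2 fold changes of −0.012 (0.19 with library totals), 0.069 and 0.057 in the 3 comparisons. Bach1, a repressor that competes with NRF2 at AREs, gave −0.049 (0.16 with library totals), 0.27 and 0.22, with both DD + rDKK3 libraries above the other 4. Rbx1, the ring subunit of the ubiquitin ligase that KEAP1 serves, had 68.75 ± 12.3 CPM in WT, 51.2 ± 11.3 in DD and 46.2 ± 1.04 after rDKK3 (SD, n = 2). Its log2 fold changes were −0.42, −0.15 and −0.57, the last with an unadjusted p of 0.0225 and an adjusted p of 0.322.

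Of the genes that make, use and export glutathione, all 22 tested had lower fitted levels in DD + rDKK3 than in DD, against 50.5% of all genes. Of these, 7 had an unadjusted p under 0.05 by edgeR, against 1.98% of all genes, and the median was −0.62 beside −0.0028 over all genes. Some stood far higher in DD 1 than in DD 2, such as Gstm1 (1728 and 459 CPM), while Gsta4 did not (199.4 and 201.4 CPM). This list was not read on its own without single libraries. Relative to WT, DD had 15 of them higher and 7 lower, with a median of 0.41, and in DD + rDKK3 against WT 3 were higher and 19 lower with a median of −0.34. Gsta1, a glutathione transferase of the alpha class, had 8.05 and 22.45 CPM in WT, 40.99 CPM in both DD libraries, and 16.6 and 12.25 CPM in DD + rDKK3. Both DD libraries stood above the other 4, and the log2 fold changes were 1.41 (SE 0.40, adjusted p = 0.586) without DKK3 and −1.51 (SE 0.40, adjusted p = 0.9999) once rDKK3 was given. Mgst3, a microsomal glutathione transferase, showed the same order with 41.9 ± 5.49 CPM in WT, 59.8 ± 15.1 in DD and 34.6 ± 2.04 after rDKK3 (SD, n = 2). Its log2 fold changes were 0.51 (adjusted p = 0.586) and −0.79 (adjusted p = 0.9999). Gstm5, of the mu class, had instead its highest level in WT, with 40.7 ± 3.38, 30.6 ± 0.71 and 26.6 ± 1.77 CPM in the order of the groups, and −0.61 (adjusted p = 0.322) for the treated acini against WT.

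Other detoxifying enzymes were lower in DD + rDKK3 than in DD for 18 of 19 genes, against 50.5% of all genes, with a median of −0.66. Of these, 6 had an unadjusted p under 0.05 by edgeR, against 1.98% of all genes. Their median was 0.042 in DD against WT and −0.39 in DD + rDKK3 against WT. Aldh3a1, an aldehyde dehydrogenase with few counts (11 to 140 per library), had 1.08 and 3.23 CPM in WT, 6.62 and 7.05 CPM in DD, and 2.74 and 2.63 CPM in DD + rDKK3. Both DD libraries were above the other 4, with log2 fold changes of 1.63 (SE 0.44, adjusted p = 0.586) against WT and −1.34 (SE 0.42, adjusted p = 0.9999) between treated and untreated DD acini. Akr1c13, an aldo-keto reductase, had 28.1 ± 2.30 CPM in WT, 26.9 ± 1.63 in DD and 16.4 ± 4.01 after rDKK3 (SD, n = 2). The treated acini thus had a log2 fold change of −0.71 (adjusted p = 0.9999) against DD and −0.78 (adjusted p = 0.322) against WT.

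All 10 tested genes of haem and iron handling had lower fitted levels in DD + rDKK3 than in DD, against 50.5% of all genes. None had an unadjusted p under 0.05 by edgeR, and the median was −0.31. Fth1, the ferritin heavy chain, had 2951 ± 81.0 CPM in WT, 3051 ± 33.4 in DD and 2405 ± 55.9 after rDKK3 (SD, n = 2). Its treated libraries lay below the other 4, with a log2 fold change of −0.34 (SE 0.18, adjusted p = 0.9999) against DD. Hmox2, the constitutive haem oxygenase, differed from the inducible Hmox1 in that its level was 77.9 ± 11.1, 65.15 ± 6.02 and 63.4 ± 4.24 CPM, highest in WT. Blvra, which reduces the biliverdin made by both oxygenases, had a log2 fold change of −0.45 (adjusted p = 0.334) in DD + rDKK3 against WT.

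In the thioredoxin list, 11 of 14 genes were lower and 3 higher in DD against WT, 10 were lower and 4 higher in DD + rDKK3 against DD, and 11 were lower and 3 higher in DD + rDKK3 against WT. The medians were −0.155, −0.159 and −0.28. Prdx1, an abundant peroxiredoxin, had 1013 and 1029 CPM in WT, 873 and 952 CPM in DD, and 679 and 574 CPM in DD + rDKK3. The groups did not overlap in this order, with log2 fold changes of −0.16 (0.042 with library totals) for DD against WT, −0.54 (SE 0.18, adjusted p = 0.9999) once rDKK3 was given and −0.71 (SE 0.18, adjusted p = 0.322) between the treated acini and WT. Sesn1, a sestrin, was the gene of this list with the lowest p in DD against WT, at −0.52 (SE 0.18, adjusted p = 0.586).

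Of the 8 tested NADPH-producing enzymes besides G6pdx, 6 were higher and 2 lower in DD against WT, and 5 were lower and 3 higher in DD + rDKK3 against DD, with medians of 0.15 and −0.42. Idh1, a cytosolic isocitrate dehydrogenase, had 573 ± 94.7 CPM in WT, 625 ± 5.395 in DD and 465.5 ± 29.05 after rDKK3 (SD, n = 2), and −0.43 (SE 0.19, adjusted p = 0.9999) between treated and untreated DD acini. Pgls, the enzyme after G6pdx in the pentose phosphate pathway, had a log2 fold change of −0.34 (adjusted p = 0.586) in DD against WT. Among 13 antioxidant enzymes outside the NRF2 core, Gpx4, the peroxidase that reduces lipid peroxides, had 339 and 296.5 CPM in WT, 208 and 255 CPM in DD, and 198 and 160.5 CPM in DD + rDKK3. Its 3 groups did not overlap, and DD + rDKK3 against WT gave −0.82 (SE 0.19, adjusted p = 0.322). The medians of this list were 0.086, −0.22 and −0.052 in the 3 comparisons.

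**Figure D4:**
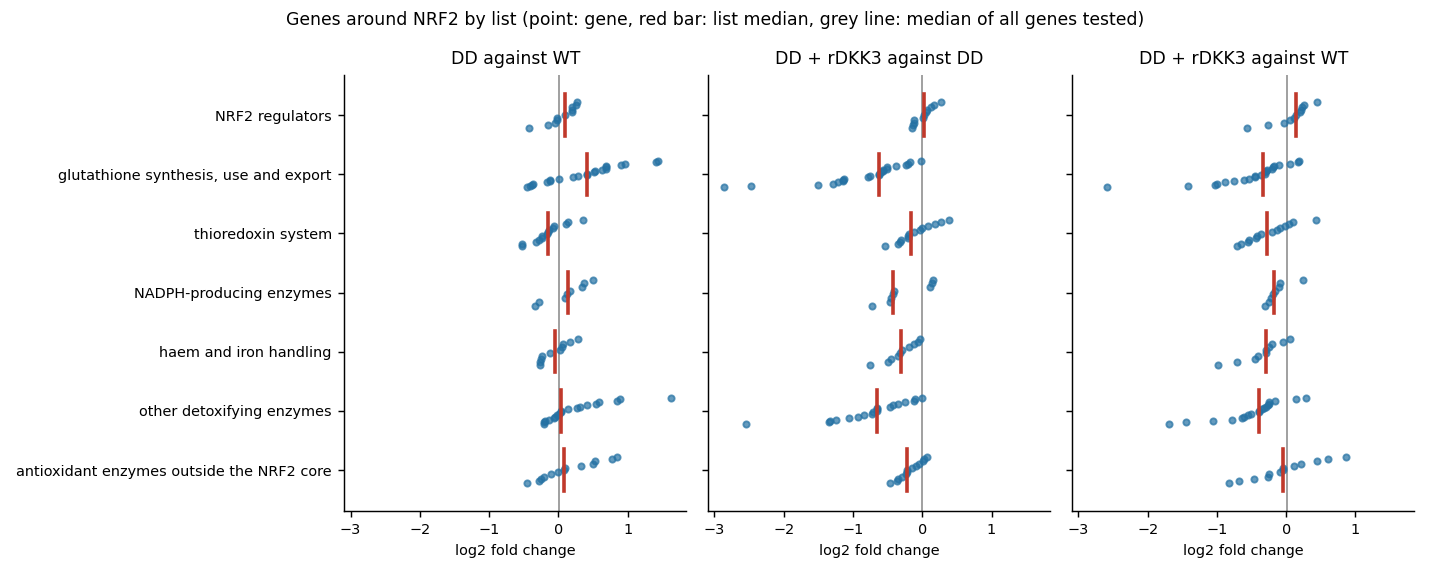
Log2 fold change (horizontal axes) of the 97 tested pathway genes by list in the 3 comparisons, where each point is a gene, red bars are list medians and grey lines the median of all genes tested. The glutathione and other detoxifying lists sit left of the grey line for DD + rDKK3 against DD (medians −0.62 and −0.66), and the NRF2 regulators lie around it (0.032).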

How the data were processed

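RNA was sequenced from 6 cultures (3 groups of 2). The authors deposited unnormalised counts per gene and library. Their methods state that stranded read pairs were mapped by STAR (2.7.9a in the submitters' processing notes) to GRCm39 with the basic GENCODE M32 annotation, and exon overlaps were counted per gene in union mode. Reads shared by overlapping genes or near copies may be lost in such counting. Of 57045 rows, 92 were spike-in sequences with 0 counts and were left out. Genes were filtered with filterByExpr (minimum count 10, minimum total 15), scaled by the trimmed mean of M-values and tested with edgeR 4.0.16 in R 4.3.3 (quasi-likelihood, two-sided, 3 groups in 1 model, 3 residual degrees of freedom), with Benjamini-Hochberg adjustment over 14738 genes and a threshold of 0.05. A prior count of 2 was used for the log2 CPM values only. DESeq2 1.42.0, limma-voom (limma 3.58.1), no filter, other scalings, replicate blocks and leaving out each library were the alternatives. Exon lengths joined all exons of the full GENCODE M39 annotation, unlike the basic M32 used for counting, so levels per kilobase are approximate. The test was run on simulated counts with the same spread for every gene. These leave out the wider gaps between libraries seen for some members.

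The members and gene lists were chosen with earlier results of these data known. Beside the members, the text names Keap1, Bach1, the gene with the lowest p in each list and comparison, and the 5 genes most like the members' mean pattern. Libraries of a group differed beyond counting noise, so none was counted as a repeat.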

Additional observations from a re-analysis of the deposited data

How the results depend on the processing

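With 2 libraries a group, the number of calls differed between tools and filters. Over all genes, 6 were called in DD against WT, 0 between treated and untreated DD acini, and 7 in DD + rDKK3 against WT. DESeq2 called 80, 5 and 74 in this order, limma-voom 3 in the last, and edgeR without the filter on low counts 528, 73 and 788. Without that filter 1, 3 and 1 members and 10, 17 and 12 pathway genes were called, and DESeq2 called 3 pathway genes in the last comparison. Members were called 0 times under every other alternative run. The cause was not tested. Leaving out single libraries gave 2 to 6 called genes in the first comparison and 2 to 9 in the last.

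Replicate numbers were not used as pairs, since the labels name no shared animal. Deviations of same-numbered libraries correlated at −0.39 (WT and DD), −0.25 (WT and DD + rDKK3) and 0.65 (DD and DD + rDKK3, whose titles share a name). If the last were pairs, 9 of the 10 members, all but Nfe2l2, were lower with rDKK3 in both, against 24.9% of all genes. A replicate block over all groups called 7, 0 and 5 genes, and a replicate block within the Dkk3-null libraries 20, 0 and 15, with 0 members in each. The latter block covered no WT library. Its comparisons with WT therefore set the replicate 1 level of the Dkk3-null groups beside both WT libraries, unlike the main fit. In that changed contrast DD against WT turned to 0.12 for Keap1 and 0.090 for Akr1c13 (log2). There DD + rDKK3 against WT turned to 0.14 for Gclc, 0.27 for Txnrd1, 0.16 for Srxn1 and 0.17 for Gsr.

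Scaling by library totals moved the median of all genes from 0.016 to 0.22 in DD against WT, and turned Keap1 to 0.19, Bach1 to 0.16, Akr1c13 to 0.14 and Prdx1 to 0.042. In DD + rDKK3 against WT it turned Txnrd1 to 0.13, Gsr to 0.055, Gsta1 to 0.020 and Sesn1 to 0.016. Without the filter Keap1 (0.040) and Bach1 (0.0043) turned in the first comparison and Txnrd1 (0.038) in the last, where limma-voom turned Txnrd1 to 0.052 and Gsta1 to 0.018. Leaving out DD 2 and DD + rDKK3 2 together turned Gclc (0.052), Txnrd1 (0.18), Srxn1 (0.034) and Gsr (0.042) in DD + rDKK3 against WT.

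Leaving out each library in turn changed the sign of some log2 fold changes. In DD against WT the ranges were −0.018 to 1.33 for Gclc, −0.41 to 0.90 for Gclm, −0.035 to 0.86 for Txnrd1, −0.61 to 1.17 for Srxn1, −0.049 to 0.72 for Gsr, −0.24 to 0.20 for Keap1, −0.12 to 0.043 for Bach1, −0.019 to 0.31 for Idh1 and −0.13 to 0.030 for Akr1c13. In DD + rDKK3 against DD they were −0.22 to 0.038 for Nfe2l2, −0.70 to 0.033 for Txnrd1, −1.28 to 0.23 for Srxn1, −0.64 to 0.069 for Osgin1, −0.14 to 0.29 for Keap1, −0.44 to 0.081 for Blvra, −0.38 to 0.097 for Rbx1 and −0.13 to 0.036 for Hmox2. In DD + rDKK3 against WT they were −0.85 to 0.63 for Nqo1, −0.77 to 0.35 for Gclc, −0.92 to 0.30 for Gclm, −0.34 to 0.48 for Txnrd1, −0.97 to 0.48 for Srxn1, −0.30 to 0.20 for Gsr, −0.046 to 0.36 for G6pdx, −0.027 to 0.18 for Keap1, −0.62 to 0.85 for Gsta1, −0.33 to 0.00055 for Pgls, −0.24 to 1.32 for Aldh3a1 and −0.30 to 0.063 for Sesn1. In these fits a lone library was assumed to vary like the other groups. The DD + rDKK3 against DD values of Nqo1, Hmox1, Gclc, Gclm, Gsr and G6pdx kept their sign in all alternatives run, but not their size. Without single libraries they were −1.145 to −0.89 for Nqo1, −1.245 to −0.60 for Hmox1 and −1.45 to −0.28 for Gclc. Those of Gclm (−1.015 to −0.044), Gsr (−0.81 to −0.038) and G6pdx (−0.75 to −0.13) came nearer to no difference.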

Other observations

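G6pdx lies on the X chromosome, and sex labels differed within WT. The library labelled as female, WT 2, held 16 counts of Xist, the transcript of the inactive X chromosome, and the other 5 libraries held 0. Transcripts of the Y chromosome summed to 139.8 CPM (of library totals) in WT 2 and to between 124 and 151.5 CPM in the other libraries, so the level in WT 2 was within their range. G6pdx in WT 2 was 105 CPM, between WT 1 (78.1 CPM) and DD 2 (108 CPM). The Y-linked sum therefore did not bear out the female label of WT 2, while Xist counts were seen there alone. Any part of sex in the difference between the WT libraries was not tested.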
